A study of Mus musculus with 12 samples.

Results

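The interferon regulatory factors are a family of transcription factors, and 8 of their genes were described here: Irf1, Irf2, Irf3, Irf4, Irf5, Irf7, Irf8 and Irf9, matched by symbol among the 52635 genes of the deposited table. Their RNA was measured in CD4 T cells from the inbred mouse strain C57BL/6, with 2 libraries in each of 6 groups. The groups combined 3 genotypes, RARα TG, RARα KO and wild type (WT), with retinoic acid (RA) at 0 or 10 nM. All 6 groups started from naive CD4 T cells over 95% pure and were held for 24 h in medium with charcoal-stripped serum, which holds little retinoid. All were stimulated with antibodies to CD3 and CD28 in TNFα and TGF-β1 (5 ng/mL each), IL-23, IL-21 and IL-1β (10 ng/mL each) and IL-6 (20 ng/mL), and all received antibodies that block IFNγ and IL-4 (10 µg/mL each). RARα, the product of Rara, is a nuclear receptor through which RA acts on transcription. The sources used here do not give the KO allele, the TG construct or the cells that express it, the ages of the mice, or whether replicates came from separate animals. Xist and Y-linked genes, given below, showed 1 TG replicate from male and 1 from female cells, so these came from different animals. Each p-value of the main fit reflects 1 spread between the libraries of a group, shared by all 6 groups. In WT and in the libraries labelled KO that spread may be technical. Levels are FPKM (fragments scaled to transcript length and library depth), a scale on which genes of different length can be compared. Of the 8 genes, 7 were among the 11922 tested (those reaching an FPKM of 1 in 2 or more libraries) and Irf7 was not.

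All interferon regulatory factors bind DNA through a conserved tryptophan-rich domain that reads GAAA repeats, and they differ in how they are switched on. IRF3, IRF5 and IRF7 wait in the cytoplasm until kinases downstream of microbial sensors phosphorylate them, and they then induce interferon and cytokine genes. IRF9 joins STAT proteins in ISGF3, the complex that carries type I interferon signals to the interferon-stimulated genes. IRF1 is made in response to IFNγ and activates antigen-presentation and guanylate-binding protein genes, while IRF2 binds the same sites and can antagonise it. IRF4 and IRF8 bind DNA weakly alone and act with partners: IRF4 with BATF and JUN proteins in T cells, where T-cell receptor signals induce it and Th17 differentiation needs it, and IRF8 with PU.1 in myeloid and B cells. IRF8 is also made by activated T cells.

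Short interferon-type motifs were found in the 250 bases before an annotated start in 3 members. Promoter sequences are shown for these, Irf8, Irf1 and Irf2. They are from RefSeq on GRCm38.p6, plus strand and 5′ to 3′, at chr8:120736108-120736357 for Irf8, chr11:53769764-53770013 for Irf1 and chr8:46739495-46739744 for Irf2. Capitals mark the gamma-activated sequence TTCNNNGAA in all 3 and, in Irf2 alone, also the core of the interferon-stimulated response element, GAAANNGAAA.
Irf8: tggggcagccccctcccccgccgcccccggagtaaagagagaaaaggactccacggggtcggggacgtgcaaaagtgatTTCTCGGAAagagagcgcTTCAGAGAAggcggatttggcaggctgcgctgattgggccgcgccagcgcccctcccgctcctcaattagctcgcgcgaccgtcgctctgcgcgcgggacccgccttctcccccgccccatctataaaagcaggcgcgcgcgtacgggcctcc
Irf1: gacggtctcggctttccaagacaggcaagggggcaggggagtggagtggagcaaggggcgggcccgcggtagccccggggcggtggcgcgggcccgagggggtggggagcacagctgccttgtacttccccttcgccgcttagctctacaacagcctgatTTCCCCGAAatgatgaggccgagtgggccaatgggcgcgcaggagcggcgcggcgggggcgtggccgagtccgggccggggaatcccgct
Irf2: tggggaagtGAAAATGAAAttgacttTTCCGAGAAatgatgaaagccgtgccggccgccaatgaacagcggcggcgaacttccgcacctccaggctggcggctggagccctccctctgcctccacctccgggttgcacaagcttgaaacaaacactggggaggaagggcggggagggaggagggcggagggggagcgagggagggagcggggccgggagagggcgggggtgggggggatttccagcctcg
Both strands of 300-base windows (250 bases before each start to 50 after it) were searched, and all 8 members matched at least 1 window. The window of the earlier annotated Irf8 start held TTCTCGGAA and TTCAGAGAA, beginning at -171 and -153 relative to that start. The window of the earlier annotated Irf1 start held TTCCCCGAA at -90. The windows at the later annotated starts of Irf8 and Irf1 held none of the motifs searched. The Irf2 window held GAAAATGAAA at -241 and TTCCGAGAA at -224. Of 32851 such windows in the mouse table, 8.30% held TTCNNNGAA and 3.44% held GAAANNGAAA. The retinoic acid receptor motif AGGTCANNNNNAGGTCA was in 3 of the 32851 windows and in no window of a member. A single AGGTCA, present in 16.3% of all windows, was found only at the later of the annotated Irf9 starts, on the plus strand at -27 and on the minus strand at -135. The windows of Irf3, Irf4, Irf5 and Irf7 held none of these letters. No matches overlapped. A match describes the letters in a window and no binding was measured.

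Depth, read from the FPKM step that 1 read makes, was 16289969 to 25534588 reads a library, and the members had from 23 reads (Irf7) to 51903 reads (Irf4) in a library. Without RA, Rara read 16.5 and 18.9 FPKM in WT, 19.5 and 19.3 in the libraries labelled KO and 72.8 and 63.3 in TG. The KO label was therefore not visible at the level of the whole gene, a value that does not check a deletion of some exons, and "the libraries labelled KO" is used throughout. Xist and the Y-linked genes showed that all WT libraries were from male cells, all libraries labelled KO from female cells, TG replicate 1 from male and TG replicate 2 from female cells. Genotype and sex therefore cannot be told apart in KO against WT. The summed level of 7 T-cell markers was 681 to 1113 FPKM in all libraries. Cd74, the class II invariant chain of antigen-presenting cells, was higher in replicate 2 in every group, at 1.37 to 6.85 times its level in replicate 1. The sum of 10 B-cell markers did not follow this in TG with RA, at 111 FPKM in replicate 1 and 110 in replicate 2. Fewer cells of a type and less RNA per cell cannot be told apart in such bulk samples.

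Irf4 had the highest level of the 8 genes in all 12 libraries and Irf7 the lowest. Without RA, Irf3, Irf1 and Irf8 in WT were each at 17.6 to 27.0 FPKM, against 423 and 425 for Irf4, and Irf9 and Irf2 were at 7.53 to 9.08. Irf5 was at 2.82 and 4.18 and Irf7 at 0.364 and 0.344. The ranges of Irf1 and Irf8 overlapped in WT without RA, as did those of Irf9 and Irf2, so these neighbours in the order did not differ beyond their spread. Irf8 changed place most: it was the sixth or the seventh gene in the TG libraries without RA and the second in all 6 libraries with RA. In replicate 1 of the libraries labelled KO with RA this place rested on 30.6 FPKM against 30.5 for Irf3. Summed over the 8 genes the family was at 443 to 515 FPKM in every library.

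**Figure D1:**
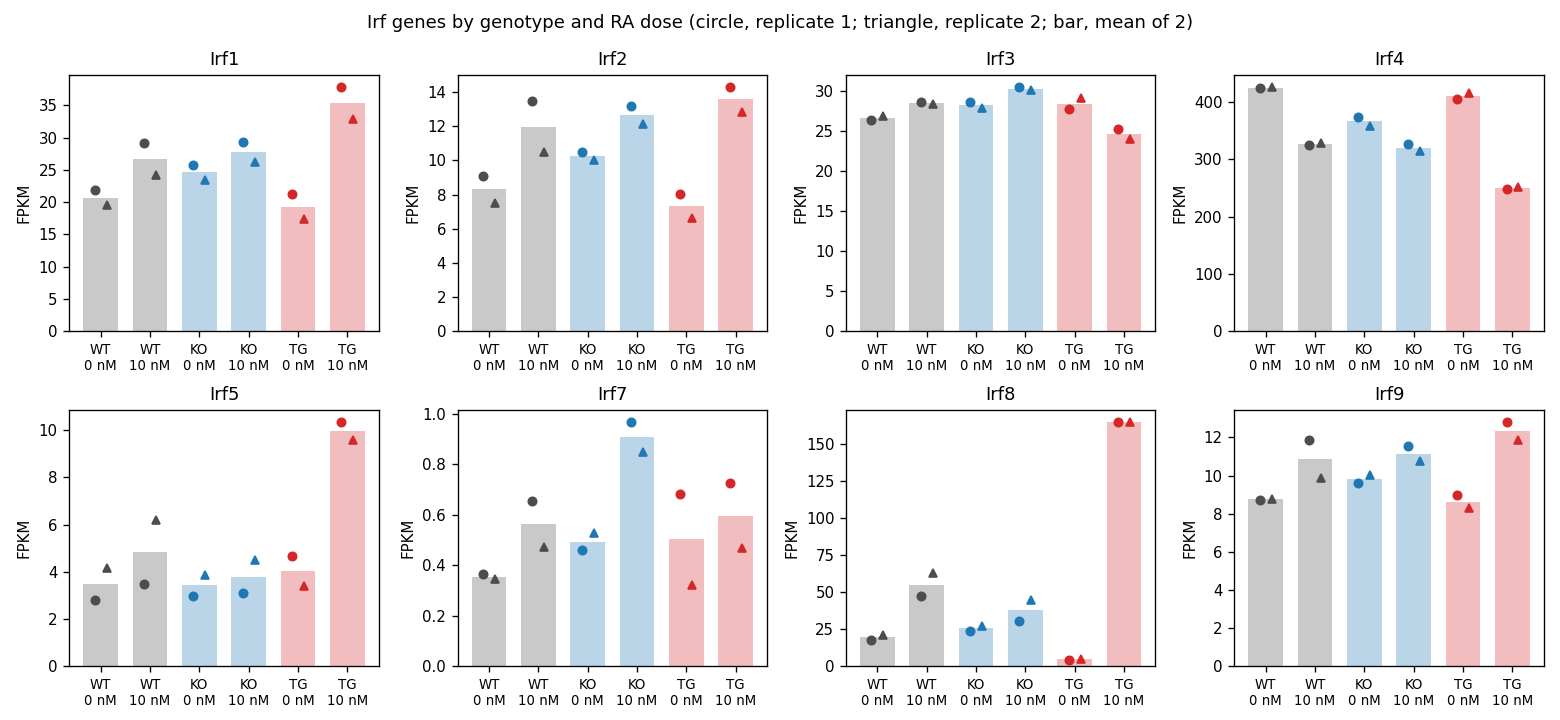
Level of each of the 8 genes in every library, as FPKM on a linear axis from 0, by genotype label and RA dose, with a scale of its own in each panel. Circles are replicate 1, triangles replicate 2 and bars the mean of the 2; Irf8 ranges from 4.38 to 165 FPKM and is lowest and highest in TG, and Irf4 (249 to 425 FPKM) is lowest in TG with RA.

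All 7 tested members differed with RA in TG cells: Irf8, Irf5, Irf1, Irf2 and Irf9 rose and Irf4 and Irf3 fell in limma's test at an adjusted p under 0.05. This was read against 39.1% of all tested genes called in that comparison, 19.7% higher and 19.4% lower. Over the other settings 6 to 7 members were called in TG, and the calls of Irf3 and Irf5 ended in settings given below. In WT 2 of 7 were called, Irf8 up and Irf4 down, against 10.1% of all genes. In the libraries labelled KO limma called 0 of 7, against 0.143% of all genes; 2 members had an unadjusted p under 0.05, and voom on recovered reads also called 0. In those libraries 5 members lay higher in both RA libraries and 1 lower, but 42.3% of all genes did not overlap between these groups. The median RA difference over the 7 members was 0.81 log2 in TG, 0.35 in WT and 0.16 in the libraries labelled KO, beside -0.02, 0.02 and 0.01 over all tested genes.

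**Figure D2:**
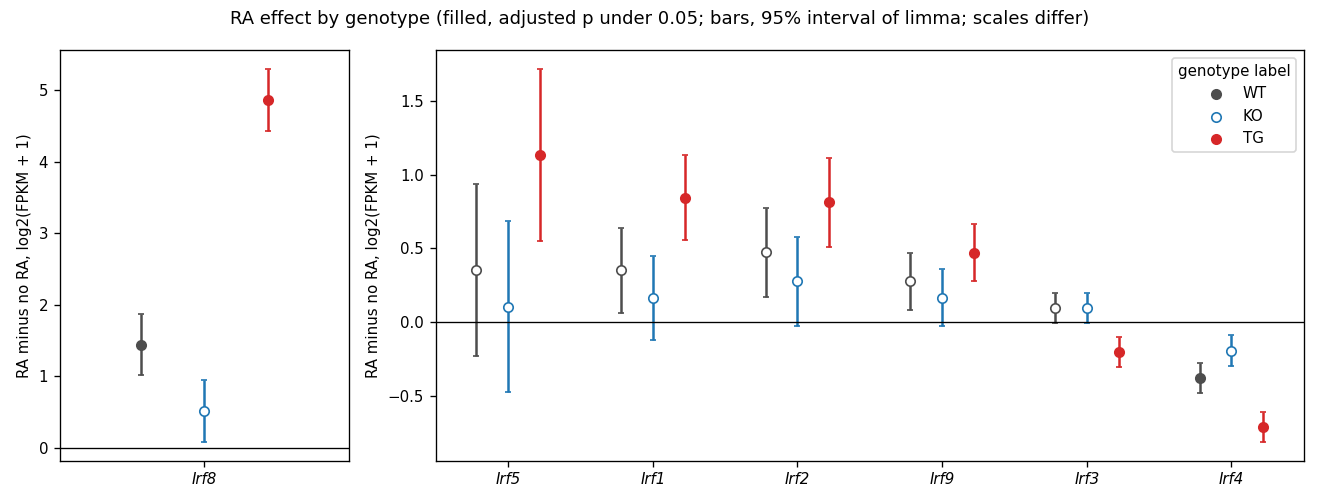
RA effect on each tested member within WT, the libraries labelled KO and TG, as log2 fold change of FPKM + 1 with 95% limma intervals. Irf8 has a panel and scale of its own. Filled points had an adjusted p under 0.05: all 7 in TG, Irf8 and Irf4 in WT, none in the libraries labelled KO.

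Irf8 (chromosome 8, 120736358 to 120756694, plus strand, GRCm38), the lymphoid and myeloid partner-dependent factor, had the widest range of the 8 genes. Without RA it was at 17.6 and 21.4 FPKM in WT, 24.1 and 27.3 in the libraries labelled KO and 4.38 and 5.05 in TG. With RA it was at 47.3 and 62.8 in WT, 30.6 and 44.9 in the libraries labelled KO and 165 and 165 in TG. The TG libraries were thus the lowest without RA and the highest with it, with no overlap with the other genotypes at either dose. The rise in TG was 35.0-fold in mean FPKM (log2 difference 4.86 ± 0.19 SE, limma adjusted p = 6.4e-07). It was 37.6-fold between the male TG libraries of replicate number 1 and 32.7-fold between the female ones of number 2. In WT the rise was 2.83-fold (1.45 ± 0.19, limma adjusted p = 0.0029). In the libraries labelled KO the difference was 0.52 ± 0.19, with a 95% interval of 0.09 to 0.94 and a limma adjusted p of 0.38; it was 0.25 without KO 10 nM replicate 2 and 0.78 without KO 10 nM replicate 1. When limma was fitted to the 4 WT libraries alone, the WT call was lost, at the same 1.45 (limma adjusted p = 0.059).

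Irf8 also differed between TG and WT at each dose, in opposite directions. TG lay below WT without RA (log2 difference -1.84 ± 0.19, limma adjusted p = 0.0020) and above it with RA (1.58 ± 0.19, limma adjusted p = 0.0011). Irf8 was the single member called between TG and WT without RA, where 4.31% of all genes were called. The RA effect in TG exceeded that in WT by 3.42 ± 0.27 log2 (limma adjusted p = 0.00024). Between the libraries labelled KO and WT the RA effect differed by -0.93 ± 0.27, which limma did not call (adjusted p = 0.58, interval -1.54 to -0.32). At 10 nM RA Irf8 was -0.54 ± 0.19 in those libraries against WT (limma adjusted p = 0.31), and -0.81 to -0.27 with 1 library left out, nearest to 0 without KO 10 nM replicate 1 (-0.27) and WT 10 nM replicate 2 (-0.34).

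Irf8 is expressed by B cells, dendritic cells and macrophages, so their markers are given beside it. In TG the 10 B-cell markers summed to 32.4 and 35.6 FPKM without RA, then to 111 and 110, and without overlap between the groups 5 of 10 lay higher and 1 lower with RA. Ighm, the IgM heavy chain, gave most of this sum: it was at 27.5 and 27.6 FPKM, then 101 and 95.9. Without Ighm the sum was 4.93 and 7.95, then 9.55 and 13.9. The 5 that lay higher were Ighm, Cd79b, Ighd, Ms4a1 and Blk, and the 1 lower was Fcer2a. Cd79b went from 0.814 and 1.09 FPKM to 3.70 and 5.31, and Fcer2a from 0.475 and 0.988 to 0.154 and 0.140. The B-cell factor Pax5 was at 0.46 and 0.71 FPKM in TG without RA and at 0.38 and 0.56 with it. The 10 dendritic and class II markers summed to 27.5 and 43.9 without RA and 32.3 and 43.0 with RA in TG, and overlapped. That sum is mostly class II genes and Cd74; without overlap 2 of the 10 lay higher and 2 lower with RA, and the dendritic and macrophage integrin gene Itgax went from 0.032 and 0.139 FPKM to 1.20 and 1.76. The 7 myeloid markers summed to 3.74 and 6.17, then 4.16 and 6.22, with 3 of 7 higher and 1 lower without overlap and Itgam listed at 0 in all 12 libraries. The share of all genes without overlap between the TG doses was not counted, so the counts without overlap are no result about the markers. In the libraries labelled KO that share was 42.3%, but 0.143% of all genes were called for RA there against 39.1% in TG. It therefore does not give the share for TG. Pax5 and the dendritic and myeloid sums thus overlapped between the TG doses, where Irf8 differed 35.0-fold. Ighm, Cd79b, the B-cell sum with or without Ighm and Itgax were higher with RA. The part of such cells in the Irf8 difference was not tested. In WT, Irf8 was 1.22 and 1.33 times higher in replicate 2 than in replicate 1, and the B-cell sum was 30.3 and 107 FPKM without RA, then 57.4 and 133, ranges that overlapped; the part of other cells in the WT difference was not tested.

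**Figure D3:**
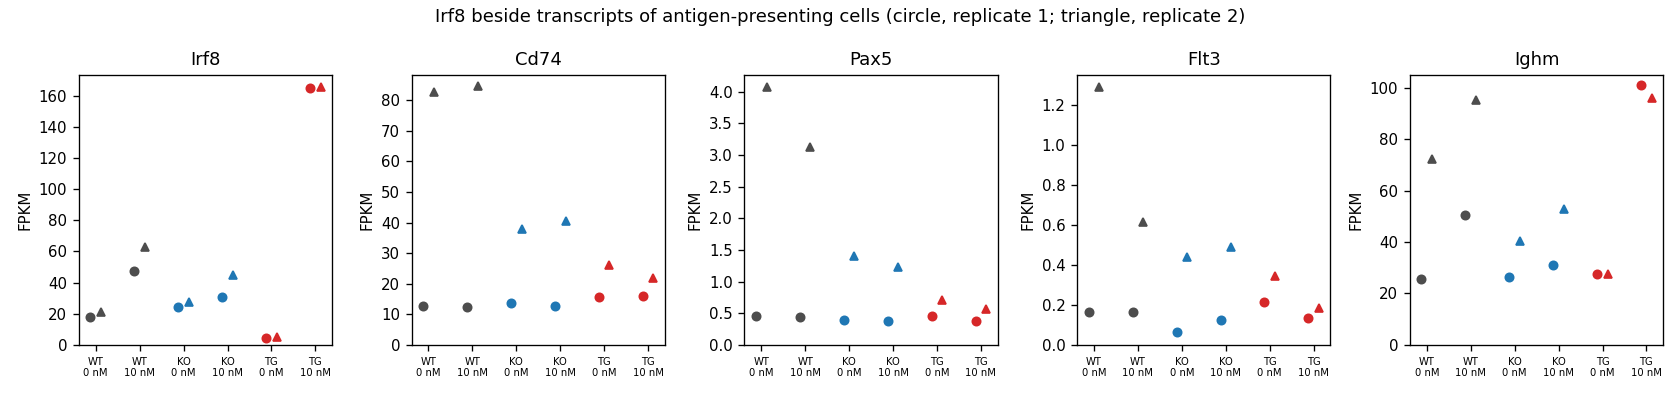
Irf8 beside Cd74, the B-cell genes Pax5 and Ighm and the dendritic precursor gene Flt3 in the 12 libraries, as FPKM on linear axes (circle, replicate 1; triangle, replicate 2). In TG, Irf8 and Ighm lie higher with RA while Cd74 and Pax5 overlap between the doses. The B-cell gene Cd79b, not drawn here, also lay higher with RA in TG. In WT replicate 2 stands above replicate 1 in all 5 panels.

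Irf4 (chromosome 13, 30749226 to 30766976, plus strand), which T-cell receptor signals induce, moved the other way from a much higher level. Without RA it was at 423 and 425 FPKM in WT, 374 and 358 in the libraries labelled KO and 404 and 415 in TG. With RA it was at 325 and 328, 326 and 314, and 249 and 251. Its mean was lower with RA in every genotype, and the TG libraries with RA were the lowest of the 12. Mean FPKM fell by 39.0% in TG (log2 difference -0.71 ± 0.05, limma adjusted p = 8.3e-06) and in WT it fell by 23.1% (-0.38 ± 0.05, limma adjusted p = 0.0020). In the libraries labelled KO the difference was -0.19 ± 0.05 (limma adjusted p = 0.16). At 10 nM RA TG lay below WT (-0.38 ± 0.05, limma adjusted p = 0.0011). The fall in TG exceeded that in WT by -0.33 ± 0.06 (limma adjusted p = 0.017). With only the compared libraries in the fit limma no longer called Irf4 for RA in WT (adjusted p = 0.083) or for TG against WT with RA (adjusted p = 0.053). The difference between the falls lost its call without either WT library at 0 nM (-0.33 and -0.34), WT 10 nM replicate 2 (-0.33), TG 0 nM replicate 2 (-0.31) or either TG library at 10 nM (-0.33 and -0.34).

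The make-up of the family's RNA shifted accordingly. The ratio of Irf4 to Irf8 FPKM without RA was 24.1 and 19.9 in WT, 15.5 and 13.1 in the libraries labelled KO and 92.3 and 82.1 in TG. With RA it was 6.87 and 5.22, 10.6 and 6.99, and 1.51 and 1.52. Irf8 made up 0.913 and 1.04% of the summed FPKM of the 8 genes in TG without RA and 32.02 and 32.5% with RA. The share of Irf4 in the same libraries was 84.2 and 85.5%, then 48.3 and 49.4%. In WT the Irf8 share was 3.45 and 4.16% without RA and 10.3 and 13.4% with it. These shares restate the levels above on a common scale and carry no test of their own.

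**Figure D4:**
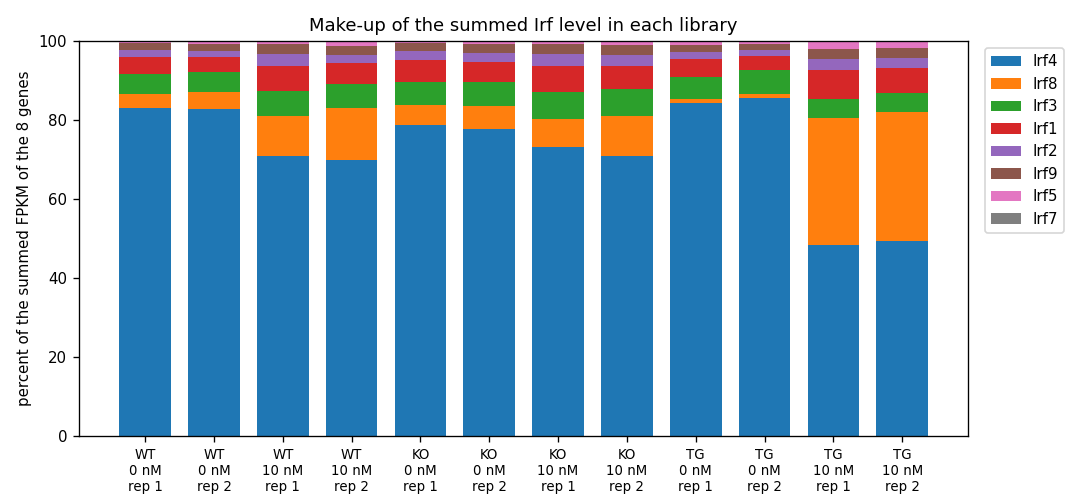
Share of each member in the summed FPKM of the 8 genes, per library, as stacked bars from 0 to 100%. Irf4 holds 48.3 to 49.4% of the bar in the TG libraries with RA and 69.7 to 85.5% in the others, and Irf8 holds 32.02 to 32.5% there.

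Irf1 (chromosome 11, 53770014 to 53778374, plus strand), the IFNγ-induced activator, and Irf2 (chromosome 8, 46739732 to 46847458, plus strand), its antagonist, rose together in TG. Irf1 was at 21.3 and 17.3 FPKM in TG without RA and at 37.8 and 32.9 with RA. Irf2 was at 8.02 and 6.60, then at 14.3 and 12.8. Neither overlapped between the doses, and the fold in mean FPKM was 1.83 for Irf1 (0.84 ± 0.13, limma adjusted p = 0.00095) and 1.85 for Irf2 (0.81 ± 0.13, limma adjusted p = 0.0015). The ratio of Irf1 to Irf2 FPKM stayed between 2.16 and 2.66 in all 12 libraries.

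In WT, Irf1 went from 21.9 and 19.5 FPKM to 29.1 and 24.3, a difference of 0.35 ± 0.13 (limma adjusted p = 0.12). Irf2 was at 9.08 and 7.53, then 13.4 and 10.5 (0.47 ± 0.13, limma adjusted p = 0.057). Both means were higher with RA, yet neither gene passed the test. Voom called Irf2 (0.52, adjusted p = 0.043), and limma gave 0.64 for it without WT 10 nM replicate 2. In the libraries labelled KO, Irf1 was at 25.7 and 23.5, then 29.3 and 26.1 (0.16 ± 0.13, limma adjusted p = 0.71). Irf2 was at 10.5 and 10.0, then 13.2 and 12.1 (0.28 ± 0.13, limma adjusted p = 0.50). The RA effect in TG minus that in WT was 0.49 ± 0.18 for Irf1 (limma adjusted p = 0.15) and 0.34 ± 0.19 for Irf2 (limma adjusted p = 0.34), neither of which passed the threshold. In all 6 groups replicate 1 was higher than replicate 2 for both genes, by a ratio of replicate 2 to 1 of 0.78 to 0.95. Irf1 overlaps the gene model Gm17334 on the opposite strand by 907 bases.

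Irf3 (chromosome 7, 44997648 to 45002848, plus strand), the kinase-activated factor held ready in most cells, varied least: its 12 libraries lay between 24.0 and 30.5 FPKM. It was at 27.8 and 29.1 in TG without RA and 25.3 and 24.0 with RA, a fall of -0.20 ± 0.04 on the log2 scale (limma adjusted p = 0.0075). In WT it was at 26.4 and 27.0, then 28.7 and 28.4 (0.09 ± 0.04, limma adjusted p = 0.23), and in the libraries labelled KO at 28.7 and 27.9, then 30.5 and 30.1 (0.10 ± 0.04, limma adjusted p = 0.48). The RA effect thus had another sign in TG, and it differed from that in WT by -0.29 ± 0.06 (limma adjusted p = 0.026). With RA, TG lay below WT by -0.20 ± 0.04 (limma adjusted p = 0.021). The fall in TG lost its call with only the TG libraries in the fit (limma adjusted p = 0.064) and without replicate 2 at either TG dose (-0.17 for each). The difference from WT at 10 nM lost it with only the compared libraries (limma adjusted p = 0.14) and without WT 10 nM replicate 1 (-0.20) or 2 (-0.21) or TG 10 nM replicate 2 (-0.17). The difference between the RA effects lost it with only the compared libraries (limma adjusted p = 0.069), without any of the 4 WT libraries (-0.31 to -0.28), and without replicate 2 at either TG dose (-0.26 for each).

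Irf5 (chromosome 6, 29526625 to 29541871, plus strand), which acts downstream of Toll-like receptors in myeloid and B cells, was low and rose in TG. It was at 4.66 and 3.40 FPKM in TG without RA and at 10.3 and 9.56 with RA, a 2.47-fold difference in means (1.13 ± 0.26, limma adjusted p = 0.0080). Without TG 0 nM replicate 2 the difference was 0.95 and not called by limma (adjusted p = 0.061). In WT it was at 2.82 and 4.18, then 3.49 and 6.19 (0.35 ± 0.26, limma adjusted p = 0.44). Leaving out WT 10 nM replicate 2 gave 0.013 and leaving out replicate 1 of that group 0.69. The libraries labelled KO were at 2.98 and 3.88, then 3.09 and 4.51 (0.11 ± 0.26, limma adjusted p = 0.92). These groups overlapped, and replicate 2 was 1.30 to 1.77 times replicate 1 in WT and in the libraries labelled KO, where Cd74 was 2.80 to 6.85 times higher in replicate 2. In TG, Irf5 was lower in replicate 2, at 0.73 and 0.92 of replicate 1. The part of antigen-presenting cells in the Irf5 level was not tested.

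With RA, Irf5 in TG lay above WT by 0.95 ± 0.26 (limma adjusted p = 0.048), a call that ended in several settings. It was lost with a pseudocount of 0.1, with no filter, with only the compared libraries, and without WT 10 nM replicate 1 (0.61) or TG 10 nM replicate 1 (0.89) or 2 (1.00). The RA effect in TG minus that in WT was 0.78 ± 0.36 (limma adjusted p = 0.26).

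Irf7 (chromosome 7, 141262706 to 141266481, minus strand), itself an interferon-stimulated gene and the amplifier of type I interferon production, was under 1 FPKM in all 12 libraries. In WT it was at 0.364 and 0.344 FPKM, and RA libraries read 0.655 and 0.471. For the libraries labelled KO the values were 0.459 and 0.529, then 0.968 and 0.848, and for TG 0.684 and 0.322, then 0.725 and 0.469. It had 23 to 66 reads a library. Without the filter on low values limma gave an RA difference of 0.35 ± 0.13 in the libraries labelled KO (adjusted p = 0.55), 0.21 in WT (adjusted p = 0.54) and 0.09 in TG (adjusted p = 0.76). The RA libraries lay higher without overlap in WT and in the libraries labelled KO, but no difference was called. The share of all genes without overlap was 42.3% of those tested in the libraries labelled KO and was not counted in WT. Log2(FPKM + 1) understates changes of low genes. By replicate number, Irf7 with RA over without was 2.11 and 1.60 in the libraries labelled KO, 1.80 and 1.37 in WT and 1.06 and 1.46 in TG.

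Irf9 (chromosome 14, 55603571 to 55610030, plus strand), the DNA-binding subunit of ISGF3, rose by less than the other 4 members that rose in TG. It was at 8.96 and 8.29 FPKM in TG without RA and 12.8 and 11.8 with RA, a 1.43-fold difference in means (0.47 ± 0.08, limma adjusted p = 0.0026). In WT it was at 8.73 and 8.76, then 11.9 and 9.86 (0.28 ± 0.08, limma adjusted p = 0.075), and limma called it without WT 10 nM replicate 2 (0.40). In the libraries labelled KO it was at 9.60 and 10.1, then 11.6 and 10.8 (0.17 ± 0.08, limma adjusted p = 0.52). The mean of every genotype was higher with RA, and TG minus WT in the RA effect was 0.19 ± 0.12 (limma adjusted p = 0.41). Irf9 shares 123 bases with Rnf31 on the same strand. Irf3, Irf5 and Irf7 share 1065, 1045 and 45 bases with Bcl2l12, Tnpo3 and Phrf1 on the opposite strand. The strand setting of the counting is not given in the sources used here, so reads in those stretches cannot be assigned to either gene.

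Between TG and WT more members were called with RA than without it, where Irf8 alone was called (log2 difference -1.84). With only the compared libraries in the fit, 1 member was called with RA. At 10 nM RA, 4 of 7 members were called between TG and WT, Irf8 and Irf5 higher and Irf4 and Irf3 lower, against 11.5% of all genes. Irf1 was 0.40 ± 0.13 higher (limma adjusted p = 0.083), Irf2 0.18 (0.45) and Irf9 0.17 (0.24), the values in parentheses being limma's adjusted p. With 1 library left out the Irf2 difference was 0.0097 to 0.34 and that of Irf9 0.051 to 0.295, in both the lowest without WT 10 nM replicate 2 and the highest without WT 10 nM replicate 1. The RA effect differed between TG and WT for 3 of 7, Irf8, Irf4 and Irf3, against 7.48% of all genes. For the libraries labelled KO against WT limma called 0 of 7 without RA (1.74% of all genes) and 0 of 7 with RA (0.881%), with 1 member each at an unadjusted p under 0.05. Voom called 1 without RA and 0 with RA: Irf4 without RA, at -0.21 ± 0.05 in limma with an adjusted p of 0.061. The RA effect in those libraries differed from that in WT for 0 of 7 (0.00839% of all genes), with 2 at an unadjusted p under 0.05 in limma and 0 called by voom. Each of these comparisons shares the WT libraries, and the RA effect in WT and in TG rest on separate libraries.

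Upstream of the family, the kinases and adaptors that activate IRF3, IRF5 and IRF7 changed in both directions in TG. Of 13 tested, 3 rose and 5 fell with RA, beside 19.7% and 19.4% of all genes, with a median of -0.08 log2. Ikbke, the kinase IKKε that phosphorylates IRF3 and IRF7, was at 8.85 and 6.47 FPKM without RA, then 22.1 and 23.8 (1.48 ± 0.16, limma adjusted p = 0.00016). Tank, the scaffold of that kinase and its relative TBK1, went from 12.6 and 13.2 to 25.3 and 25.3 (0.92 ± 0.05, limma adjusted p = 3.6e-06). Irak4, the kinase behind Toll-like receptors and MYD88, rose by 0.90 ± 0.10 (limma adjusted p = 0.00017). The 5 that fell were Mb21d1 (cGAS, a DNA sensor), Ticam1 (the adaptor TRIF), Traf3, Myd88 and Tbk1, by 0.22 to 0.58 on the log2 scale. In WT 2 of 13 rose, Tank (0.50 ± 0.05, limma adjusted p = 0.0010) and Irak4, and 0 fell, beside 10.1% of all genes called. Fitted to the WT libraries alone, limma called neither (adjusted p = 0.058 for Tank). Without 1 library in turn 1 or 2 were called. The Irak4 call in WT (0.39) was lost without any 1 of the 4 WT libraries (0.32 to 0.46).

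The interferon receptors and their kinases and STATs moved mostly upward. Of 9 tested, 7 rose and 1 (Tyk2) fell in TG, with a median of 0.56 log2, beside 39.1% of all genes called. In WT 6 rose and 0 fell, with a median of 0.36, beside 10.1%. Ifngr1, the ligand-binding chain of the IFNγ receptor, was at 13.6 and 12.01 FPKM in TG without RA and 79.0 and 67.4 with it (2.42 ± 0.10, limma adjusted p = 7.5e-07). In WT it went from 15.02 and 14.2 to 36.3 and 36.9 (1.27 ± 0.10, limma adjusted p = 0.00041), and the RA effect in TG was larger by 1.15 ± 0.14 (limma adjusted p = 0.0019). Ifngr2, the signalling chain, rose by 1.10 ± 0.06 in TG (limma adjusted p = 3.6e-06) and 0.49 ± 0.06 in WT (limma adjusted p = 0.0024, and 0.063 when fitted to the WT libraries alone). Ifnar2, a chain of the type I interferon receptor, rose by 0.57 ± 0.06 in TG (limma adjusted p = 0.00021). Without 1 library in turn 2 to 5 of the 9 were called in WT, the fewest (2) without WT 0 nM replicate 2 or WT 10 nM replicate 1.

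The DNA-binding partners of IRF4 and IRF8 changed unevenly in TG. Of 9 tested, 4 rose and 2 fell, beside 19.7% and 19.4% of all genes. Jun, which binds with BATF and IRF4 at composite sites, was at 20.7 and 18.0 FPKM without RA, then 53.4 and 52.9 (1.42 ± 0.08, limma adjusted p = 4.3e-06). Batf3, a BATF relative, was at 0.571 and 0.981, then 3.17 and 3.55. It was under 1 FPKM in all other groups and was tested only through these 2 RA libraries, so its call is no support, and 3 of the other 8 rose. Ikzf3 (Aiolos) rose by 0.41 ± 0.07 (limma adjusted p = 0.0019). Batf, the main T-cell partner of IRF4, fell by 0.32 on the log2 scale. In WT Jun was the 1 partner called of the 9 (0.38 ± 0.08, limma adjusted p = 0.024), beside 10.1% of all genes. Its call was lost when fitted to the WT libraries alone and without WT 0 nM replicate 1 (0.36) or 2 (0.39) or WT 10 nM replicate 1 (0.28). Of the 3 corepressors that bind IRF2, 1 was called in TG, beside 39.1% of all genes. Irf2bp2 rose there 1.57-fold in mean FPKM (0.62 ± 0.05, limma adjusted p = 3.8e-05).

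Genes known to depend on IRF4 in T cells mostly fell with RA in TG. Of 12 tested, 7 fell and 3 rose in TG (median -0.55 log2), and 4 fell and 2 rose in WT (median -0.03), beside 39.1% and 10.1% of all genes called. Ahr, a ligand-activated factor of Th17 cells, was at 34.4 and 33.6 FPKM in TG without RA and 12.3 and 14.9 with it (-1.27 ± 0.09, limma adjusted p = 1.8e-05). Its RA difference in WT was -0.19 ± 0.09 (limma adjusted p = 0.23). Icos, a costimulatory receptor, went from 99.4 and 111 to 7.03 and 5.39 in TG (-3.89 ± 0.14, limma adjusted p = 5.3e-07). Il9, a cytokine gene, went from 447 and 849 to 4.33 and 10.1 (-6.33 ± 0.44, limma adjusted p = 1.4e-05). Both also fell in WT, Icos by -1.85 ± 0.14 (limma adjusted p = 0.00041) and Il9 by -4.29 ± 0.44 (limma adjusted p = 0.0011). The 3 that rose in TG were Ccr8, Bcl6 and Gata3.

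ISGF3 targets, the interferon-stimulated genes proper, were mostly too low to test: 5 of 19 passed the filter. Of these 5, limma called 4 higher with RA in TG and 0 in WT, where 3 had an unadjusted p under 0.05 and voom also called 0. In WT limma called 1 without WT 10 nM replicate 2. For the interaction, 4 of 5 were called for a larger RA effect in TG than in WT, beside 7.48% of all genes, and 39.1% were called for RA in TG. Ifit1, counted in both, reached 1 FPKM only in TG libraries and was tested only through them; without it 3 of the other 4 were called in each. Ifit2 was at 9.43 and 7.72 FPKM in TG without RA and 19.9 and 18.7 with it (1.09 ± 0.09, limma adjusted p = 4.0e-05). Usp18, an inhibitor of type I interferon signalling, was at 1.11 and 0.646, then 5.74 and 4.82 (1.75 ± 0.17, limma adjusted p = 7.8e-05). Zbp1, a nucleic acid sensor, was at 4.15 and 2.67, then 10.2 and 9.67 (1.33 ± 0.14, limma adjusted p = 0.00012). The call on the difference from WT fell to 1 of 5 without WT 0 nM replicate 1 or TG 10 nM replicate 1.

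Genes induced by IRF1 and IFNγ divided into a rising and a falling set. Beside 39.1% of all genes called, 7 of 20 tested rose and 8 fell in TG (median 0.01 log2), and in WT, beside 10.1%, 6 rose and 3 fell (median 0.10). Those that rose included the immunoproteasome subunit Psmb10, at 10.6 and 8.96 FPKM without RA, then 26.7 and 22.2 in TG (1.24 ± 0.10, limma adjusted p = 3.2e-05) and at 12.3 and 11.1, then 22.2 and 20.9 in WT (0.83 ± 0.10, limma adjusted p = 0.0020). Of those that fell in TG the largest difference was that of the guanylate-binding protein gene Gbp2, named after its values were seen. It went from 262 and 141 FPKM to 24.4 and 15.8 (-3.23 ± 0.33, limma adjusted p = 0.00012). Its relative Gbp5 went from 38.5 and 27.1 to 6.22 and 5.48 (-2.28 ± 0.16, limma adjusted p = 1.7e-05). In the same libraries Irf1 itself rose. The RA difference in WT was -1.58 ± 0.33 for Gbp2 (limma adjusted p = 0.021) and -1.27 ± 0.16 for Gbp5 (limma adjusted p = 0.0029). Without RA, 5 of the 20 were higher in the libraries labelled KO than in WT (Tap1, Igtp, Psmb8, Psmb9 and Irgm1), beside 1.74% of all genes, by 0.34 to 0.50 log2. Tap1, a peptide transporter subunit, had the smallest p and the smallest difference, at 36.5 and 34.9 against 28.0 and 28.0 FPKM (0.34 ± 0.05, limma adjusted p = 0.011). Leaving out any 1 of those 4 libraries left at most 1 of the 5 calls and ended that of Tap1 (0.31 to 0.37). The chemokine gene Cxcl10, counted among the 8 that fell, was at 2.77 and 3.44 FPKM in TG without RA and under 1 in all other groups, so it was tested only through these 2 libraries; 7 of the other 19 fell.

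**Figure D5:**
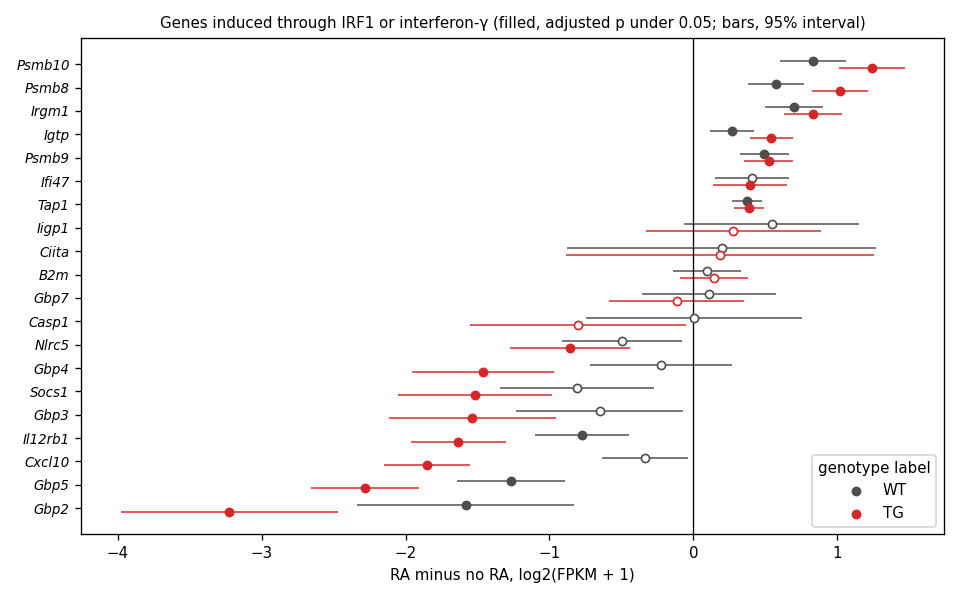
RA effect in TG and in WT for the 20 genes of the IRF1 and IFNγ list, as log2 fold change of FPKM + 1 with 95% limma intervals, filled where the adjusted p was under 0.05. In TG, 7 called genes lie above 0 and 8 below it, with Psmb10 at 1.24 and Gbp5 at -2.28.

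By the rule for likeness, the genes whose levels followed a member most closely over the 12 libraries could be named for Irf8 and Irf5, the 2 members with a range of at least 1 log2 between group means. For Irf8 they were Zfp827 (Pearson r 0.989), Rgs3, a regulator of G-protein signalling (0.987), and Samsn1, an adaptor of lymphocytes (0.987). For Irf5 they were H2-Eb2, a class II gene (0.948), Filip1l (0.946) and Ctnna1, α-catenin (0.942). The 12 points share groups and the RA effect in TG, and r is a description with no test.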

How the data were processed

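The assay was stranded single-read RNA-seq of 12 libraries (100 bp reads), per the labels' protocols. The authors deposited FPKM per gene. Named in the submitters' processing notes are DESeq2, HTSeq 0.6.1, STAR and Trimmomatic 0.32, and the builds mm10 and GRCm38.p5, without roles. Positions came from GENCODE M21 (GRCm38). Of the values up to 20 reads, whole reads to within 0.02 made up 95.3 to 95.9%; recovered reads were 1.06 to 1.07 times the depth. Depth bears on counting error only, while the intervals given are limma's and rest on the spread between libraries.

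Genes were tested with limma 3.58.1 (R 4.3.3, trended eBayes) on log2(FPKM + 1), a scale that understates changes of low genes, with 1 mean per group, 6 residual and 2.51 prior degrees of freedom, 9 comparisons, two-sided p-values and Benjamini-Hochberg adjustment within each over 11922 genes at 0.05; values are log2 difference ± SE. The code was tested on simulated data. The members, lists and naming rule (all members, and up to 3 called genes of a list with the smallest p) were chosen with earlier results of these data known; genes beyond that rule were named to account for counts of 5 or fewer, after their values were seen. Alternatives were a pseudocount of 0.1, no filter, upper-quartile scaling, only the compared libraries, a replicate block, leaving out each library, and, chosen after seeing the data, voom on recovered reads (11910 genes). Tables were handled in Python 3.11.15 (numpy 2.4.6, pandas 2.3.3) and drawn with matplotlib 3.10.9. Some items are not reported here by name.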

Additional observations from a re-analysis of the deposited data

Results flagged for a closer look

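The RA effect differed between TG and WT in limma's interaction test for 3 of the 7 tested members. The difference, TG minus WT, was 3.42 on the log2 scale for Irf8, -0.33 for Irf4 and -0.29 for Irf3. The calls for Irf4 and Irf3 were lost when single libraries were left out, and that for Irf8 was kept in every setting run. Groups of 2 libraries were too small to look for a library far from the others.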

How the results depend on the processing

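Over all alternatives, 623 member results kept their direction and side of the threshold, 31 lost a call, 11 gained one and 21 changed sign; the cause of each was not tested. Irf8 kept its calls for RA in TG, for TG against WT at both doses and for the TG-WT difference in RA effect in every setting run. Over the settings that kept all libraries of a group, 6 to 7 members were called for RA in TG. With only the compared libraries in the fit, 0 members were called for RA in WT and 1 for TG against WT with RA. Voom called 1 member in KO against WT without RA and gave Irf5 there as 0.022. With 1 library left out, which takes a group's remaining library to vary as the other groups do, 2 to 4 members were called for RA in WT, 2 to 3 for TG against WT with RA and 1 to 3 for the TG-WT difference in RA effect. That step moved 33 of 63 member values by over 1.5 times, 32 of them uncalled and 1 called (Irf5, TG against WT with RA, 0.61 to 1.29). Of uncalled results, it gave Irf5 as -0.11 to 0.32 for RA in the libraries labelled KO. For KO against WT it gave Irf5 as -0.23 to 0.21 without RA and, with RA, Irf1 as -0.071 to 0.18, Irf2 as -0.084 to 0.25, Irf5 as -0.60 to 0.080 and Irf9 as -0.082 to 0.16. For TG against WT without RA it gave Irf1 as -0.24 to 0.044, Irf5 as -0.054 to 0.38 and Irf9 as -0.069 to 0.031. For the KO-WT difference in RA effect it gave Irf3 as -0.015 to 0.023, Irf5 as -0.59 to 0.093 and Irf9 as -0.23 to 0.010. Over the other settings, all genes called were 142 to 1689 for RA in WT, 0 to 73 in the libraries labelled KO and 3794 to 5215 in TG; with a library left out they were 342 to 850, 6 to 16 and 3233 to 4083. For KO against WT the settings gave 26 to 479 without RA and 14 to 174 with it (leaving out a library, 31 to 80 and 44 to 94), for TG against WT 47 to 823 and 422 to 1814 (131 to 224 and 626 to 1041), and for the differences in RA effect 0 to 21 (KO) and 656 to 1248 (TG; 1 to 4 and 469 to 716). Upper-quartile scaling changed the split of calls for RA in WT from 795 higher and 414 lower to 667 and 554, and shifted the median of all genes by at most 0.02 log2. With no filter 9 and not 4 ISGF3 targets were called for RA in TG.

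The replicate numbers, which the labels do not tie to animals or days, were tried as a block. Differences between replicates correlated at 0.147 to 0.327 within a genotype and 0.0035 to 0.206 otherwise. The block called 5 members for RA in WT (adding Irf1, Irf2 and Irf9) and 2 in KO against WT without RA (Irf1 and Irf4). It also added Irf1 for TG against WT with RA and for the TG-WT difference in RA effect. Irf7 was left out of the main fit and of voom by the filter on low values, and 2 libraries a group limit every small difference.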

Other observations

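Among the genes beside the members on the chromosome, Rec8, a meiotic cohesin subunit gene 8007 bases past Irf9, rose with RA in TG by 1.51 ± 0.15 log2 (limma adjusted p = 9.0e-05). Dusp22, a phosphatase gene 37995 bases before Irf4, fell by 0.50 on the log2 scale in the same comparison (limma adjusted p = 0.019). Gm16675, 217 bases before Irf2 on the minus strand, rose by 0.66 ± 0.13 (limma adjusted p = 0.0044). Tnpo3, which overlaps Irf5, was at -0.17 ± 0.05 (limma adjusted p = 0.024). Of all tested genes, 39.1% were called in that comparison. The genes on either side of Irf8 were not called there: Cox4i1, 62151 bases before it, was at -0.17 (limma adjusted p = 0.091), and Mthfsd, 334934 bases after it, at 0.05 (limma adjusted p = 0.72). These neighbours were looked at after the members' values were seen.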
